A study of Oryza sativa Japonica Group with 10 samples.

Results

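All low-phosphate arrays of a rice seedling experiment were compared as 1 class with the control arrays, to find the genes whose signal lay apart from the control at each of 4 harvests. The seedlings were one-week-old plants of the japonica cultivar Zhonghua 10, and no genotype, transgene or other treatment distinguishes the groups in the labels. The control plants grew with sufficient phosphate (2 arrays), and the other plants were kept in a phosphate-deficient medium and taken after 6, 24, 48 or 72 h (2 arrays each, 8 in all). The 2 arrays of a group are labelled biological replicates from independent plants. A probe set, the group of short probes that stands for 1 transcript on this Affymetrix rice array, was counted as separated when all 8 low-phosphate signals lay above both control signals or all 8 lay below both. Of 34316 probe sets bright enough to test, 4088 were separated upward and 3019 downward. A harvest time is not given for the control, so the effects of low phosphate, time of day and seedling age cannot be told apart here.

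Phosphate is taken up by roots through plasma-membrane transporters of the Pht1 family and moved to the shoot by PHO1 proteins. PHR transcription factors switch on the starvation genes, and SPX-domain proteins, which sense inositol pyrophosphates, hold PHR factors back when phosphate is plentiful. Starved rice plants also replace membrane phospholipids with galactolipids made by MGD and DGD synthases, and they change root growth and the uptake of other nutrients.

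Signals of the 2 arrays of a group correlated across the tested probe sets with r between 0.947 and 0.969. RNA quality measures moved with harvest time, since the log2 ratio of 3′ over 5′ signal of rice Gapdh was 1.61 and 1.89 on the control arrays but 2.35 and 2.57 on the 6 h arrays and 4.73 and 5.48 on the 72 h arrays. At 24 and 48 h this ratio lay between 1.44 and 1.67, close to the control. The hybridisation controls, labelled transcripts added to every sample in a fixed amount, were on average lower with low phosphate for 17 of 18 probe sets (median -0.26 on the log2 scale), and 6 of the 18 were themselves separated downward. Markers of both organs were present, with 17 of 18 genes of the green shoot list and 8 of 8 genes of the root list bright enough to test. Their summed signals changed between harvests rather than with low phosphate as a whole. The green shoot sum was 151362 and 152604 in the control and between 113494 and 156693 on the 8 other arrays, and the root sum was 31981 and 33063 against 20155 to 40498. In whole seedlings, fewer cells of a type and less RNA per cell cannot be told apart.

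The median difference from the control was 0.76 on the log2 scale in the upward separated probe sets and -0.76 in the downward ones. They made up 11.9% of the tested probe sets upward and 8.8% downward. The test was limma's contrast of the mean of the 4 low-phosphate groups with the control, which measures error only by the spread between the 2 arrays of a group, and adjusted p below 0.05 counted as passing. It passed 7238 probe sets upward (21.1%) and 5688 downward (16.6%), among them 3836 of the 4088 and 2762 of the 3019 separated ones. A second limma fit with 2 classes, 8 arrays against 2, counts differences between harvests as error too. It passed 815 probe sets upward (2.37%) and 464 downward (1.35%), and all 1279 of them were separated. A single control array weighs on the rule: with either control array left out, 6236 or 6343 probe sets lay upward and 4368 or 4128 downward. Under the deposited scaling 57.5% of the separated probe sets were upward. That share was 33.1% with each array centred on its median and 84.9% with each array shifted to the hybridisation controls, scalings that moved the median change of all tested probe sets from 0.06 to -0.10 and 0.30. Upward separation held under all 4 scalings run, which include quantile normalization, for 1874 probe sets (45.8% of those upward), and downward separation held for 1185 (39.3%).

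**Figure D1:**
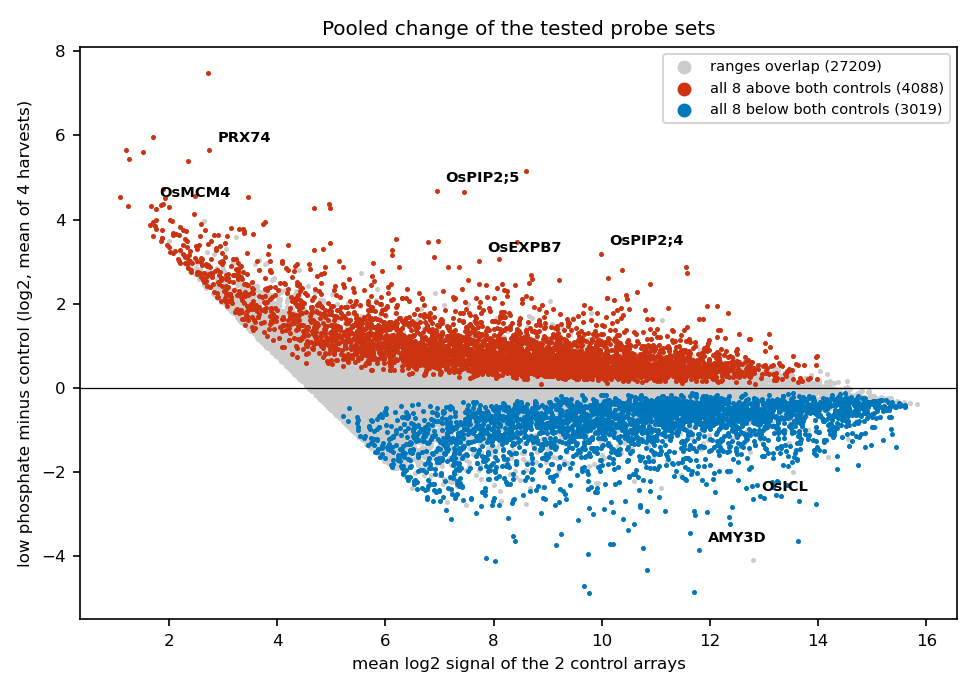
Each point is 1 tested probe set, with its mean log2 signal on the 2 control arrays on the x axis and its pooled log2 change with low phosphate on the y axis. The 4088 probe sets in red and 3019 in blue had no overlap between the 8 low-phosphate and the 2 control arrays, the slanted lower edge is the filter on low signals, and changes of probe sets below 4.58 on the x axis are not well bounded.

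How far a probe set was separated was measured as the gap, the log2 distance between the nearest arrays of both classes. Median gaps were small, 0.23 upward and 0.20 downward. A gap over 1, meaning that even the nearest arrays differed more than 2-fold, was reached by 256 probe sets upward and 171 downward, and a gap over 2 by 51 and 16. Changes beyond 2-fold at each of the 4 harvests were found for 662 upward and 309 downward separated probe sets. The rule has a sharp edge, which OsDCL4, a Dicer-like enzyme of small RNA production, passed upward with a gap of 0.00035 while OsCslD1, a cellulose synthase-like gene, failed it by an overlap of 0.0015. At the other edge OsIDS1 passed with a gap of 9.04e-05 and the auxin repressor IAA18 failed by 0.00074. Named below are mainly the genes with the widest gaps, which were chosen for their separation, so their direction is a description. All 28 of them were separated under all 4 scalings, but their choice by gap largely fixed this. The narrowest of their gaps was 1.05, for OsMFT1. Array medians ran from 47.5 to 69.3, less than 2-fold apart, and log2 means of the hybridisation controls from 11.42 to 11.90. Median centring and the shift to the hybridisation controls therefore could not close such gaps.

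Water channel genes held both of the widest gaps among the named genes that were not dim in the control. OsTIP2;1, a vacuolar membrane aquaporin, had control signals of 168.8 and 181.9 and low-phosphate signals from 2598 to 8079 with a median of 4218. The lowest low-phosphate array was thus more than 14-fold above the higher control array, and the 24 h arrays were the highest. OsTIP2;1 rose by 4.64 ± 0.06 on the log2 scale (SE; adjusted p = 5.18e-13 in limma's pooled contrast), and its second probe set rose by 3.53. OsPIP2;5, a plasma-membrane aquaporin, read 122.6 and 124.5 in the control and 1625 to 9767 with low phosphate, a rise of 4.69 ± 0.06 (adjusted p = 1.8e-13). OsPIP2;4 went from 1027 and 1009 to between 5060 and 23868, and rose by 3.19 ± 0.04 (adjusted p = 2.54e-13). Both PIP genes peaked at 24 h, at 9438 and 9767 for OsPIP2;5 and 23868 and 23560 for OsPIP2;4, and stood lower at the other harvests. OsPIP2;4, OsPIP2;5 and OsPIP2;1 are direct neighbours among protein-coding genes in the RefSeq annotation of assembly ASM3414082v1, and the probe set of OsPIP2;1 with the widest gap rose by 1.64.

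Of 23 aquaporin genes tested, with 1 probe set per gene, 9 were separated upward and 2 downward, which is 39.1% and 8.7% against 17.2% and 10.8% of all 16077 genes tested in this way. The list's median change was 0.22, beside 0.10 for all genes. Plasma-membrane aquaporins made up 6 of the 9. Lsi6, a silicon channel of the aquaporin family, read 24.3 and 46.1 in the control and 65.9 to 303.8 with low phosphate. OsTIP4;1 fell by 0.85 ± 0.05 (adjusted p = 3.5e-08), and OsTIP3;1, a seed-type vacuolar aquaporin, fell by 0.78 ± 0.12 (adjusted p = 2.2e-04). In the 2-class fit 6 of the 23 genes passed, beside 2.37% of all tested probe sets upward and 1.35% downward. Under the 3 other scalings 8 to 12 aquaporin genes were separated upward and 1 to 3 downward.

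Expansins, proteins that loosen the cell wall during growth, formed the list with the largest upward share among lists with at least 8 tested genes. Of 25 genes 15 were separated upward (60%) and 2 downward (8%), beside 17.2% and 10.8% of all tested genes. The median change was 1.13, and 10 passed the 2-class fit. Of all tested probe sets 2.37% passed that fit upward and 1.35% downward. Among the separated expansin genes 2, OsEXPB18 being 1 of them, had a dimmer side below the filter level. They passed the filter only through their brighter arrays, so they support nothing in this count. OsEXPB7, a β-expansin, read 218.3 and 207.2 in the control and between 1453 and 2092 on the other 8 arrays. Its low-phosphate signals spanned a narrow range compared with the gap of 2.73, and it rose by 3.03 ± 0.07 (adjusted p = 4.81e-11). OsEXPB2 went from 266.0 and 266.7 to between 885 and 2306, highest at 48 h, and rose by 2.39 ± 0.06 (adjusted p = 1.59e-10). OsEXPB18 was dim in the control, at 18.3 and 3.1, and reached 64.6 to 145.1, so its rise is given as at least 3.88-fold over the filter level of 24.0. OsEXPB6, OsEXPB2 and OsEXPB3 are neighbours in the annotation and all 3 were separated upward, as were the neighbours OsEXPB8 and OsEXPB7. Such relatives can share probes, and the probe sets of OsEXPB2, OsEXPB6, OsEXPB7 and OsEXPB8 are not of the types marked as shared between transcripts. The α-expansins (7 of 10) and β-expansins (7 of 10) supplied 14 of the 15 genes. The expansin-like OsEXLA2 went the other way, from 1764 and 1666 to between 370.8 and 693.1, and fell by 1.64 ± 0.10 (adjusted p = 7.55e-08). Across the 3 other scalings 14 to 16 expansin genes were separated upward and 2 downward.

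Cellulose synthases, which spin the wall's main fibre, and related Csl glycan synthases included 7 of 28 genes upward (25%) and 1 downward (3.57%). The shares of all tested genes were 17.2% and 10.8%. The list's median change was 0.55. OsCesA4, a cellulose synthase of secondary walls, read 20.8 and 42.0 in the control and 137.0 to 457.0 with low phosphate, a rise of 2.87 ± 0.29 (adjusted p = 7.68e-06). A second and brighter OsCesA4 probe set changed by 0.75 ± 0.18 and overlapped the control, so the size for this gene depends on the probe set. OsCslC3 rose by 1.55 ± 0.17 (adjusted p = 1.8e-05) and OsCslA1 by 1.41 ± 0.10 (adjusted p = 3.6e-07). Class III peroxidases, which couple or loosen wall phenolics, had 2 named probe sets among the widest gaps. PRX74 read 5.8 and 7.7 in the control and 213.0 to 514.7 with low phosphate, a rise of at least 14.0-fold over the filter level. PRX112 went from 16.5 and 17.7 to between 109.7 and 195.2, at least 5.78-fold, but its other probe set changed by -0.07 ± 0.16.

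**Figure D2:**
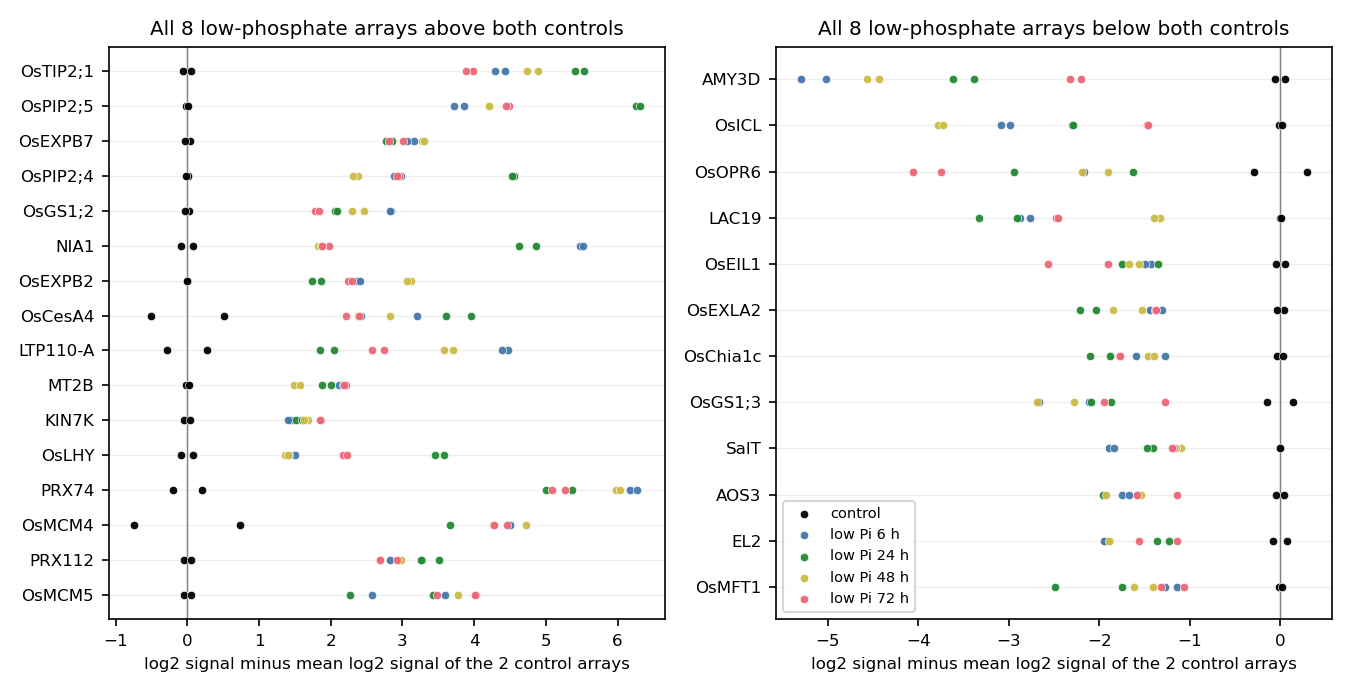
Each row is a named gene and each point 1 array, as log2 signal minus the mean log2 signal of the 2 control arrays (black), with low-phosphate arrays coloured by harvest. The left panel holds 16 genes chosen for wide upward gaps and the right panel 12 chosen for wide downward gaps, and the harvests differ in order from gene to gene. The dim controls of PRX74, OsMCM4, PRX112 and OsMCM5 are plotted as measured, below the filter level.

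Nitrogen genes were split between isoforms. OsGS1;2, a cytosolic glutamine synthetase that assimilates ammonium, read 1638 and 1577 in the control and 5508 to 11464 with low phosphate, and rose by 2.27 ± 0.05 (adjusted p = 1.53e-11). It was highest at 6 h and lowest at 72 h. Its relative OsGS1;3 went from 355.4 and 434.6 to between 61.1 and 161.9, and fell by 2.12 ± 0.26 (adjusted p = 3.74e-05). NIA1, which encodes nitrate reductase, had control signals of 132.7 and 117.8 and rose by 3.50 ± 0.08 (adjusted p = 5.04e-11), with 5542 and 5700 at 6 h, 3099 and 3650 at 24 h and 441.8 to 490.7 at the later harvests. That spread between harvests kept NIA1 from passing the 2-class fit (adjusted p = 0.097), and its second, dim probe set changed by -0.81 ± 0.64. The ammonium transporter OsAMT3;3 was dim in the control and rose by at least 2.58-fold. In all, 6 of 16 nitrogen genes were separated upward (37.5%) and 1 downward (6.25%), beside 17.2% and 10.8% of all tested genes. OsAMT3;3 is among the 6 but passed the filter only through its brighter arrays, so it supports nothing in this count. The median change of the list was 0.34, and with median centring 3 genes of the list were upward.

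Of 21 genes that make or move iron chelators or otherwise handle iron, 8 were separated upward (38.1%), 2 downward (9.52%) and 11 not, and 11 passed the pooled contrast upward and 4 downward. Of all tested genes 17.2% were separated upward and 10.8% downward, so the downward share lay near that of all genes. Of all tested probe sets 21.1% passed the pooled contrast upward and 16.6% downward. Rice takes up ferric iron as a complex with deoxymugineic acid, which nicotianamine synthases (NAS) and nicotianamine aminotransferase (NAAT) build and YSL proteins transport. OsNAS2 read 5071 and 5233 in the control and 11079 to 25742 with low phosphate, a rise of 1.79 ± 0.04 (adjusted p = 1.5e-11). The 6 h arrays were the highest and the 72 h arrays the lowest of the 8. OsNAAT1 went from 3741 and 3721 to between 8189 and 15736 and rose by 1.65 ± 0.03 (adjusted p = 1.5e-11). All 3 NAS genes tested were separated upward, and so was OsYSL14, which rose by 1.98 ± 0.15. OsYSL13 went the other way and fell by 1.44 ± 0.05 (adjusted p = 6.4e-10). The iron transporter OsIRT1 fell by 0.24 ± 0.05 under the deposited scaling but changed by 0.0055 when arrays were shifted to the hybridisation controls. In the 2-class fit 6 of the 21 genes passed, beside 2.37% of all tested probe sets upward and 1.35% downward. Under the 3 other scalings 6 to 10 genes were upward.

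Replication and cell division genes contributed 18 of 48 genes upward (37.5%) and 2 downward (4.17%), with a median change of 0.40. The shares of all tested genes were 17.2% and 10.8%. Many were dim in the control, and 7 of the 20 separated genes had a control mean below the filter level. These 7 passed the filter only through their low-phosphate arrays, so they support nothing in this count. OsMCM4, a subunit of the replicative helicase, read 5.3 and 1.9 in the control and 40.1 to 83.8 with low phosphate, at least 2.66-fold. OsMCM5 went from 5.7 and 6.1 to between 28.5 and 96.1, at least 2.59-fold. Of 6 MCM genes tested 5 were separated upward, and all 5 had a control mean below the filter level, so that they entered the test only through their low-phosphate arrays and their count supports nothing. The mitotic cyclin CYCB1-1 read 34.0 and 2.3 in the control and 69.7 to 175.8 with low phosphate, at least 5.14-fold. Since 8 of the 10 arrays in the filter are low-phosphate arrays, a dim gene passes it more readily when it is higher in them. With median centring 10 genes of the list were upward and 3 downward. Genes often used as references also differed, with 9 of 20 upward (45%) and 3 downward (15%), beside the same 17.2% and 10.8%. Among them 5 of 7 β-tubulins were upward and 1 downward. TUBB2 rose from 733.6 and 736.3 to between 1486 and 2496, by 1.43 ± 0.05 (adjusted p = 2.1e-09). ACT7, an actin gene, fell by 0.68 ± 0.04 with its widest-gap probe set, and both genes kept their separation under all 4 scalings. KIN7K, a kinesin motor protein, went from 80.0 and 84.6 to between 217.1 and 299.6, and rose by 1.62 ± 0.14 (adjusted p = 2.12e-06) with no difference between harvests that passed (adjusted p = 0.21 in the limma F-test).

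Further genes with wide upward gaps belong to none of these groups. LTP110-A, a lipid transfer protein, read 84.5 and 57.2 in the control and 250.8 to 1543 with low phosphate, a rise of 3.17 ± 0.14 (adjusted p = 7.33e-09). MT2B, a metallothionein that binds metals and scavenges oxidants, went from 3906 and 4004 to between 11060 and 18280, a rise of 1.95 ± 0.04 (adjusted p = 1.69e-11). Both further probe sets of MT2B were separated upward too, by 1.91 and 0.84. OsHKT1;5, a sodium transporter of the xylem parenchyma, rose by 2.19 ± 0.10 (adjusted p = 1.2e-08).

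Downward, the widest gap among named genes was that of AMY3D, a sugar-repressed α-amylase of germinating seeds. It read 3703 and 3434 in the control and 90.9 to 773.8 with low phosphate, and fell by 3.86 ± 0.11 (adjusted p = 3e-10). The 6 h arrays were the lowest and the 72 h arrays the highest of the 8. OsICL, the isocitrate lyase of the glyoxylate cycle that turns seed lipid into sugar, went from 7022 and 7161 to between 516.1 and 2568, and fell by 2.64 ± 0.05 (adjusted p = 1.53e-11). Only 8 of 15 genes on the list of seed reserve and germination genes were bright enough to test. Of the 8 genes 2 were downward (25%) and 1 upward (12.5%), beside 10.8% and 17.2% of all tested genes. Their summed signal was 7375 and 7631 in the control and 2632 to 5279 with low phosphate, and AMY3D, at 3703 and 3434, was the brightest of the 8 in the control. OsICL is not on that list. The part of seed tissue in these falls was not tested. With median centring or quantile normalization 4 of the 8 genes were downward and 0 upward, and with the shift to the hybridisation controls 1 and 1.

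Defence proteins had the largest downward share among lists with at least 8 tested genes. Of 10 genes for chitinases and other pathogenesis-related proteins 7 were separated downward (70%) and 0 upward, beside 10.8% and 17.2% of all tested genes. The median change was -1.04, and 4 passed the 2-class fit. Of all tested probe sets 2.37% passed that fit upward and 1.35% downward. OsChia1c, a class I chitinase that cleaves fungal walls, read 3008 and 3160 in the control and 717.1 to 1277 with low phosphate, and fell by 1.66 ± 0.09 (adjusted p = 2.9e-08), and its other probe set fell by 1.68. OsChia1a, its neighbour in the annotation, fell by 1.10 ± 0.04 (adjusted p = 9.1e-10), with changes of -1.03, -1.05, -1.10 and -1.22 at the 4 harvests that differed in the limma F-test (adjusted p = 0.0146). OsChia2a fell by 1.46 ± 0.05 (adjusted p = 1.1e-09). Such paralogs can share probes, and the probe sets of OsChia1c and OsChia2a named here are of types that may cross-hybridise. Across the 3 other scalings 6 to 8 of the 10 were downward. EL2, an elicitor-responsive cell-cycle inhibitor, went from 2242 and 2487 to between 611.6 and 1072, and fell by 1.62 ± 0.10 (adjusted p = 1.03e-07).

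Jasmonate is the oxylipin hormone of wounding and defence. Its synthesis genes and JAZ repressors were downward in 6 of 35 cases (17.1%) and upward in 2 (5.71%), beside 10.8% and 17.2% of all tested genes. AOS3, an allene oxide synthase, read 802.5 and 851.1 in the control and 213.3 to 376.0 with low phosphate, and fell by 1.64 ± 0.15 (adjusted p = 4.4e-06). OsOPR6, of the oxophytodienoate reductase family, went from 127.9 and 191.9 to between 9.4 and 50.7, and fell by 2.60 ± 0.53 (adjusted p = 0.00191), but it did not pass without the second control array. The JAZ repressor OsTIFY11c fell by 1.19 ± 0.08, while the lipoxygenase LOX3 rose by 1.25 ± 0.09 (adjusted p = 5.8e-07). Shifting arrays to the hybridisation controls turned this list to 7 upward and 4 downward, so no direction can be given for it as a whole. The WRKY factors, regulators of defence genes, had 2 of 6 genes downward, beside the same 10.8%. Of these OsWRKY62 fell by 1.47 ± 0.14 (adjusted p = 5e-06). With the shift to the hybridisation controls 1 WRKY gene was upward and 1 downward.

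Laccases and genes of other families also had wide downward gaps. LAC19, a laccase that can polymerise lignin, read 1904 and 1913 in the control and 189.4 to 758.1 with low phosphate, and fell by 2.44 ± 0.11 (adjusted p = 8.76e-09). LAC15 fell by 1.94 ± 0.16 and LAC24 by 1.20 ± 0.05. Of 20 genes of the lignin pathway and laccases 3 were downward (15%) and 1 upward (5%), beside 10.8% and 17.2% of all tested genes. SalT, a mannose-binding lectin induced by salt, was among the brightest, going from 44634 and 44748 to between 12004 and 20873, and fell by 1.40 ± 0.03 (adjusted p = 3.99e-11). OsEIL1, a transcription factor of the ethylene response, read 1485 and 1388 in the control and 241.7 to 561.1 with low phosphate and fell by 1.72 ± 0.15 (adjusted p = 2.54e-06). OsMFT1, a relative of the flowering signal FT, fell by 1.51 ± 0.17 (adjusted p = 1.82e-05). Calcium signalling genes had 13 of 67 downward (19.4%) and 8 upward (11.9%), beside the same 10.8% and 17.2%. The calmodulin-like CML31 led downward and fell by 1.72 ± 0.08 (adjusted p = 1.3e-08). Under the shift to the hybridisation controls the calcium list had 14 upward and 6 downward.

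**Figure D3:**
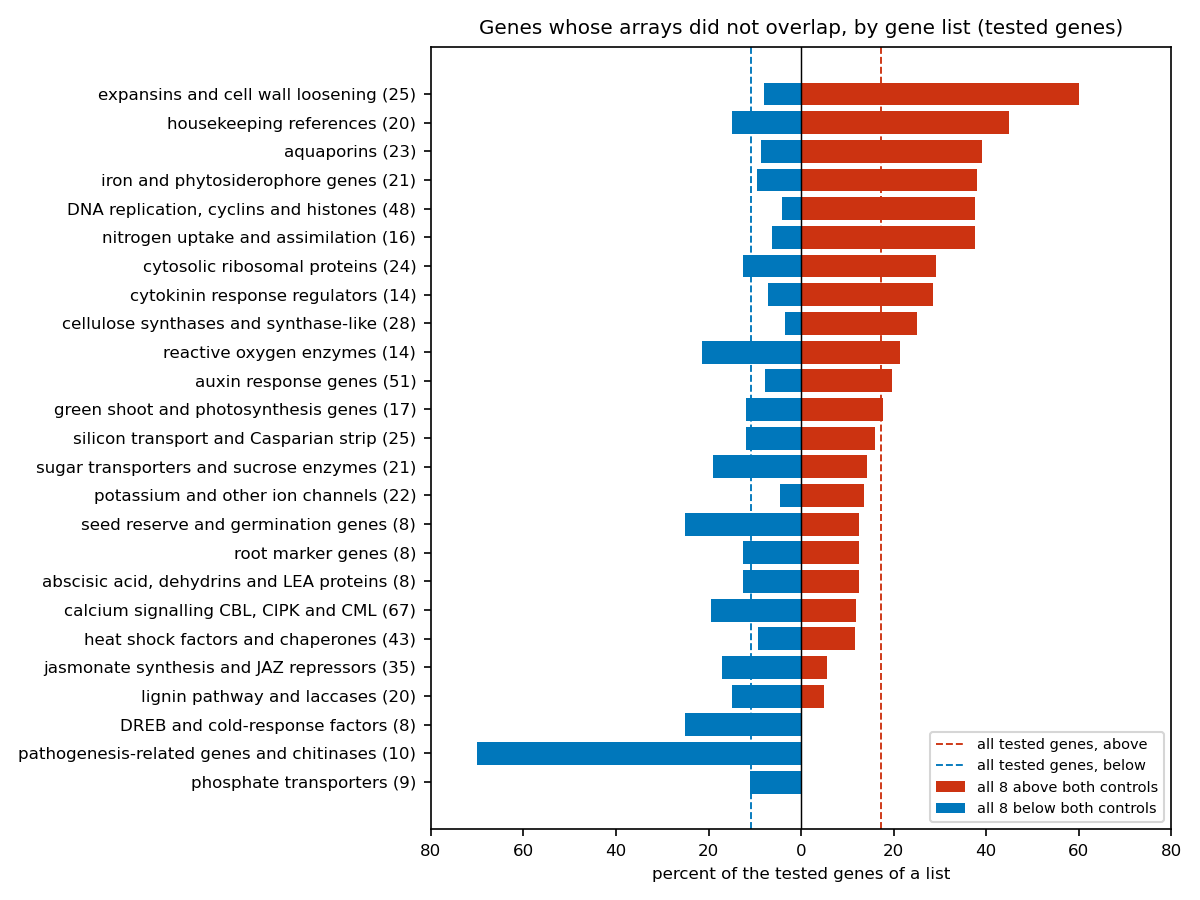
Bars give the percentage of a list's tested genes whose 8 low-phosphate arrays all lay above (red, right) or all below (blue, left) both control arrays, for lists with at least 8 tested genes (number in brackets). Dashed lines give the same over all 16077 tested genes, 17.2% above and 10.8% below, and expansins at 60% and chitinases with other pathogenesis-related genes at 70% lie farthest from them. Separated genes whose dimmer side lies below the filter level are counted too. They are 2 expansins, 7 replication and cell division genes, and 1 gene each of the nitrogen, calcium signalling and heat shock lists.

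Genes on the lists of phosphate starvation, uptake and sensing were separated about as often as other genes in this comparison. On the list of core markers alone 1 of 7 genes was upward (14.3%) and 0 downward. Of 19 genes in the lists of core markers, SPX proteins, transporters, regulators and lipid remodelling, 3 were separated upward (15.8%) and 2 downward (10.5%), close to the 17.2% and 10.8% of all genes, and 14 overlapped the control. In the pooled contrast 7 passed upward (36.8%) and 2 downward (10.5%), beside 21.1% and 16.6% of all tested probe sets. These background shares, and those of the 2-class fit, count probe sets rather than 1 per gene, so they are not like for like. The units differ, since 11.9% of probe sets but 17.2% of genes were separated upward. In limma's 2-class fit 0 passed, where the smallest adjusted p was 0.0865 and 3 genes had an unadjusted p below 0.05, beside 2.37% of all tested probe sets upward and 1.35% downward, so few calls would fall among 19 genes at those shares. The median change of the 19 was 0.33, beside 0.10 for all genes.

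OsSPX1, an SPX-domain inhibitor of PHR factors and a standard starvation marker, read 864.4 and 798.2 in the control and 869.1 to 1299 with low phosphate. Its gap was 0.01, because 1 array of the 6 h group lay almost at the higher control. It rose by 0.38 ± 0.09 (adjusted p = 0.0073), and the separation was lost under quantile normalization and median centring, where 0 of 7 genes of the core list were separated, while 2 of the 7 were upward with the shift to the hybridisation controls. OsSPX2 read 390.3 and 255.9 in the control and 375.4 to 629.0 with low phosphate, rose by 0.62 ± 0.18 (adjusted p = 0.019) and overlapped the control by 0.06. OsSPX5 was dim, with 24.3 and 20.2 in the control and 20.9 to 98.9 with low phosphate, and the probe set chosen by brightness changed by 1.19 ± 0.50 without passing. A second OsSPX5 probe set was separated upward and changed by 1.92 ± 0.53 (adjusted p = 0.0132). OsSPX4 changed by -0.10 ± 0.05 and did not pass, with -0.49 at 6 h and 0.26 at 72 h.

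Among regulators, OsPHR1 read 978.3 and 997.9 in the control and 1104 to 1472 with low phosphate, and rose by 0.33 ± 0.06 (adjusted p = 9.7e-04). OsPHR3 went from 2444 and 2189 to between 615.9 and 2042, and fell by 0.72 ± 0.08 (adjusted p = 2.1e-05). Most of this came from 6 h, where it changed by -1.75, against -0.22 at 72 h, and it was not separated when arrays were shifted to the hybridisation controls. OsPHR2, the central activator of the response in rice, read 2034 and 2112 in the control, 1337 to 1360 at 6 h and 2323 to 2845 later. Its arrays therefore lay on both sides of the control, and its pooled change of 0.10 ± 0.05 did not pass.

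Of 9 phosphate transporters tested, OsPht1;1 alone was separated, reading 3310 and 3526 in the control and 2253 to 3273 with low phosphate. It fell by 0.34 ± 0.05 (adjusted p = 1.3e-04) with a gap of 0.02, and when arrays were shifted to the hybridisation controls 2 transporters were separated upward and 0 downward. OsPht1;4 read 561.9 and 632.7 in the control, 1504 and 1503 at 6 h and 527.3 to 670.0 afterwards, so its rise of 0.36 ± 0.08 in the pooled mean rested on the 6 h harvest. OsPHO1;2, which loads phosphate into the xylem, was likewise raised mostly at 1 harvest, 24 h, with 4428 and 4216 against 2037 and 1968 in the control. OsPht1;8 rose by 0.42 ± 0.10 (adjusted p = 0.0064) and overlapped by 0.05. OsPht1;2 changed by 0.16 ± 0.07 and did not pass. OsPht1;3, OsPht1;6, OsPht1;11 and OsPHO1;3 had standard errors between 0.64 and 0.81 and did not pass.

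OsMGD1, a galactolipid synthase of the plastid, read 978.5 and 1037 in the control and 1260 to 2550 with low phosphate, and rose by 0.83 ± 0.07 (adjusted p = 9.9e-07). It had the widest upward gap of the 19 genes, 0.28. With median centring OsMGD1, OsPHR1 and OsSPX1 all lost their separation. OsMGD3 lay on both sides of the control, from 648.1 at 24 h to 1274 at 72 h, and OsMGD2 changed by 0.04 ± 0.56. Acid phosphatases had no member that could be matched by name and were not analysed here.

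**Figure D4:**
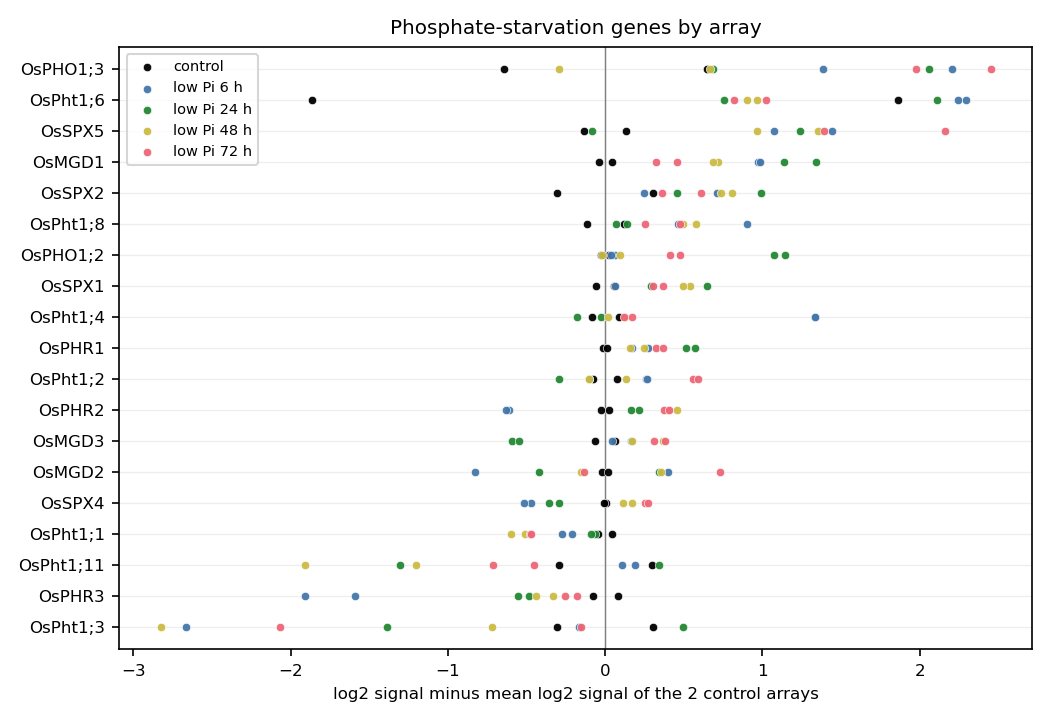
Log2 signal minus the mean log2 signal of the 2 control arrays (x axis) is shown for 19 phosphate-starvation genes, 1 point per array, controls in black and low-phosphate arrays coloured by harvest. Low-phosphate and control arrays overlap for 14 of the 19 genes, and 5 have no overlap.

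Separation did not mean a constant level. Among upward separated probe sets 59.7% differed among the 4 harvests in a limma F-test (adjusted p below 0.05) and among downward ones 75.9%, beside 56.5% of all tested probe sets. Each harvest was compared with the same 2 control arrays, so the following values share them. The median change of the upward set ran from 0.69 (48 h) to 0.79 (24 h), with 0.78 at the first and 0.73 at the last harvest. That of the downward set ran from -0.62 (48 h) to -0.81 (24 h), with -0.71 at the first and -0.67 at the last. The largest change of a probe set fell at 24 h most often, for 33% of the upward and 36.9% of the downward set, and at 48 h least often, for 16.7% and 16.8%. The array nearest the control was spread over the harvests, from 22.1% at 6 h to 27.2% at 48 h upward and from 20.7% at 6 h to 30.7% at 72 h downward. Leaving out a harvest can only keep or add separated probe sets. The counts were 5323 upward and 3749 downward without 6 h, 5954 and 4056 without 24 h, 4887 and 3846 without 48 h, and 5278 and 4054 without 72 h, the harvest with the highest 3′ over 5′ ratios. The part of RNA quality, or of whatever else moved these ratios, in the separated genes was not tested.

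Clock genes, which swing with time of day, showed how far harvests could differ within a separated gene. OsLHY, a morning-phase transcription factor, read 1167 and 1035 in the control, 12037 and 13107 at 24 h and 2823 to 5143 at the other harvests. It rose by 2.14 ± 0.05 in the pooled contrast (adjusted p = 1.13e-10) but had adjusted p = 0.0598 in the 2-class fit. GI, an evening-phase clock component, read 8472 and 8652 in the control, 630.4 and 788.3 at 24 h and 4913 to 8006 at the others, with a gap of 0.08 that closed under quantile normalization and the shift to the hybridisation controls. LIR1, a light-regulated chloroplast protein, fell from 26507 and 27761 to 573.5 and 560.6 at 24 h and read 16367 to 19335 at the others. Of 6 clock genes tested 1 was upward and 1 downward, and the F-test among harvests passed for all 6. That test passed for 56.5% of all tested probe sets and for all 24 cytosolic ribosomal proteins tested. Passing it is thus not particular to clock genes. The part of time of day in the separated genes was not tested.

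Further lists had smaller differences from the shares of all genes, or a split that turned with the scaling. Heat shock factors and chaperones had 5 of 43 genes upward (11.6%) and 4 downward (9.3%), beside 17.2% and 10.8% of all tested genes. Silicon transport and Casparian strip genes had 4 and 3 of 25, and potassium transporters and ion channels 3 and 1 of 22. Auxin response genes had 10 of 51 upward (19.6%) and 4 downward (7.84%), led by the repressor IAA23 with a rise of 1.43 ± 0.17 (adjusted p = 3.6e-05), and with median centring 4 were upward and 6 downward. Cytosolic ribosomal proteins had 7 of 24 upward (29.2%) and 3 downward (12.5%), and their split moved to 2 and 4 with median centring and to 13 and 0 with quantile normalization.

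Where a gene had several probe sets, the others often went the same way but were less often separated. For the 419 genes with an upward brightest probe set and at least 1 further tested probe set, 156 of 537 further probe sets (29.1%) were upward and 8 (1.49%) downward. For the 304 such downward genes 145 of 404 (35.9%) were downward and 11 (2.72%) upward. Genes whose brightest probe set was not separated had 6.79% and 5.3% of their further probe sets upward and downward. Both directions occurred in 1 gene for 20 genes.

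**Figure D5:**
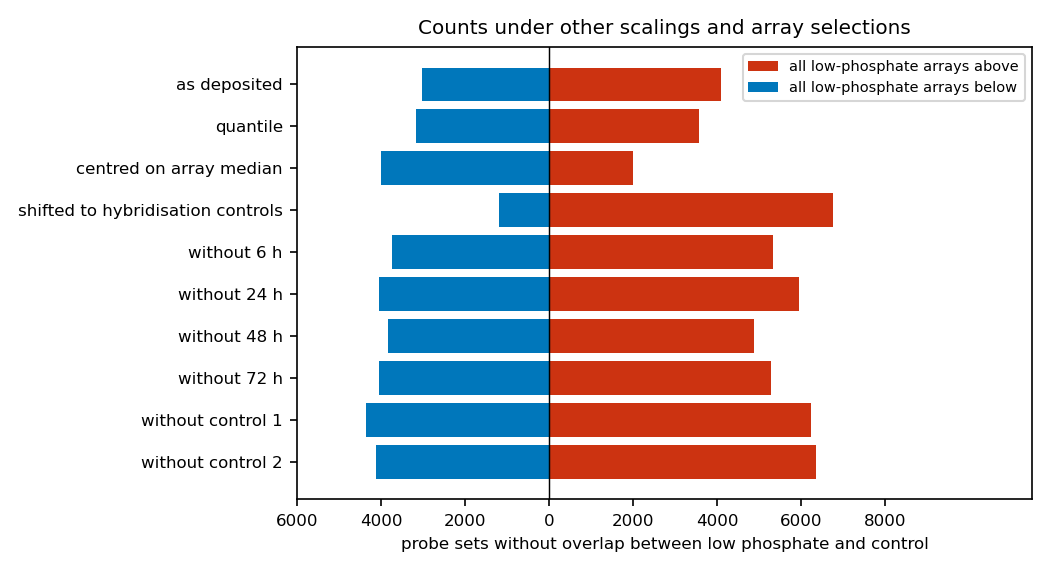
Bars count the tested probe sets whose low-phosphate arrays all lay above (red, right) or all below (blue, left) the control arrays, under 4 scalings and without single harvests or control arrays. The deposited scaling gives 4088 above and 3019 below, median centring 1986 and 4018, and the shift to hybridisation controls 6754 and 1200, so the balance of directions turns with the scaling.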

How the data were processed

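The authors deposited 1 linear signal intensity per probe set and array, made with GCOS and MAS5 per the submitters' processing notes (versions: not given in the sources used here). No detection calls were used. The 2%-trimmed mean of the intensities was 500.1 on each of the 10 arrays, the mark of scaling to a common target. Of 57381 probe sets, 123 Affymetrix controls and 64 reporter controls were left out. Intensities were taken to log2 without an offset and tested where the mean over 10 arrays exceeded the 40th percentile (signal 24.0), leaving 34316. The model had a mean for each of the 5 groups and was fitted with limma 3.58.1 under R 4.3.3 (5 residual and 6.5 prior degrees of freedom, intensity trend, eBayes). Contrasts were two-sided and adjusted by Benjamini-Hochberg over all tested probe sets. The labels say that replicates came from independent plants, and 2 arrays per group limit the precision. The script was tested on simulated data.

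Genes come from the platform's annotation and RefSeq, with 22436 probe sets of 1 gene, 95 of several and 34663 of none. These give 17905 genes, of which 2453 have a published name. Named genes are the 12 widest gaps in each direction, with 1 named gene and adjusted p below 0.05, and 4 upward ones whose dimmer side lies under the filter level, given as bounds over that level. No downward gene met the latter. All tested members of the phosphate lists and up to 3 of every other list in each direction were added, and OsPIP2;1, OsEXPB3, OsEXPB6, OsEXPB8 and the genes at the edge of the rule were chosen after their values were seen. List counts use each gene's brightest tested probe set. Members and lists were chosen with earlier results of these data known. The planned search of promoters for motifs was not done, because no sequence table was at hand.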

Additional observations from a re-analysis of the deposited data

Results flagged for a closer look

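Of the 28 genes chosen for wide gaps, 21 differed among the 4 low-phosphate harvests in the limma F-test over all tested probe sets, although all stayed on one side of the control (n = 2 arrays per harvest, which share the 2 control arrays). Of all tested probe sets 56.5% differed in this test, and of the upward and downward separated ones 59.7% and 75.9%. Such a difference is thus not particular to the 28 genes. For the water channels the adjusted p was 7.46e-08 for OsTIP2;1, 4.89e-10 for OsPIP2;5 and 1.2e-10 for OsPIP2;4. For wall genes it was 0.0024 for OsEXPB7, 5.27e-07 for OsEXPB2, 0.02 for OsCesA4, 0.00386 for PRX74, 2.26e-06 for LAC19 and 0.000485 for OsEXLA2. For metabolism it was 1.55e-07 for OsGS1;2, 1.34e-10 for NIA1, 4.38e-08 for AMY3D and 7.65e-10 for OsICL. For the remaining genes it was 8.28e-07 for LTP110-A, 1.03e-06 for MT2B, 9.25e-10 for OsLHY, 0.0143 for OsEIL1, 0.00162 for OsChia1c, 5.99e-08 for SalT, 0.000784 for EL2 and 0.00743 for OsMFT1. Of the 28 genes, the 24 h harvest held the largest change of 11, and the 6, 48 and 72 h harvests that of 8, 5 and 4.

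The control probe sets of rice Gapdh, which enter no comparison, had a mean log2 ratio of 3′ over 5′ signal of 5.1 at 72 h, above 1.75 in the control (2 arrays each).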

How the results depend on the processing

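The counts of passing probe sets, 7238 upward and 5688 downward, rest on the spread within groups. They were 815 and 464 with 2 classes of 8 and 2 arrays, and the ratio rule of the series text gave 3074 and 1093. Median centring gave 4518 passing upward and 1986 separated upward. The shift to the hybridisation controls, added after seeing the data, gave 11586 and 2665 passing and 6754 and 1200 separated. Leaving out 1 array at a time gave 5583 to 7387 passing upward, 4176 to 5928 passing downward, 4272 to 6343 separated upward, 3136 to 4368 separated downward and 17728 to 19331 differing among harvests. Without the first control array 6236 were separated upward and 4368 downward, and without the second 6343 and 4128. Under the other alternatives these counts stayed within 1.5 times.

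Same-numbered arrays of different groups did not deviate together, so the replicate numbers do not pair them. With the replicate block 7127 passed upward, 5647 downward and 19154 differed among harvests.

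Of 3463 pairs of a named gene and an alternative, 142 no longer passed, 77 of them in the 2-class fit, 16 passed anew and 9 changed sign. With quantile normalization OsSUS2 changed by 0.14, RPS21 by 0.00011, RPL30 by 0.080, REFA1 by 0.043 and UBQ1 by 0.067. With the shift to the hybridisation controls OsIRT1 changed by 0.0055, OsSUS2 by 0.11, RPL30 by 0.0034 and UBQ1 by 0.032. All were negative under the deposited scaling, and the cause was not tested. Of the 28 widest-gap genes, NIA1, OsLHY and OsOPR6 did not pass the 2-class fit, OsOPR6 did not pass without the second control array, and the other 25 passed wherever they were tested. Dim signals carry the widest errors.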

Other observations

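Of 14 genes on the list of reactive oxygen enzymes 3 were upward (21.4%) and 3 downward (21.4%), beside 17.2% and 10.8% of all genes. The 3 upward genes encode ascorbate peroxidases, and the downward ones a superoxide dismutase and the catalases CAT-A and CAT-B. OsAPx01 read 9546 and 9590 in the control and 14103 to 17851 with low phosphate, and rose by 0.74 ± 0.03 (adjusted p = 4.9e-09 in limma's pooled contrast, n = 2 arrays per group). OsAPx05 rose by 0.85 ± 0.11 (adjusted p = 5e-05). SODCC.2 read 19843 and 20283 in the control and 11250 to 14518 with low phosphate, and fell by 0.62 ± 0.04 (adjusted p = 1.5e-07). SODCC.2, CAT-A and the third ascorbate peroxidase, OsAPx06, did not keep their separation under all 4 scalings, while OsAPx01 and OsAPx05 did. With the shift to the hybridisation controls 4 of the 14 genes were upward and 0 downward, counted by brightest probe set. The widest-gap probe set of CAT-B kept its separation under all 4 scalings. CAT-A fell by 1.55 ± 0.05 (adjusted p = 9.6e-10), with -3.76 at 24 h. CAT-B fell by 0.31 ± 0.03 with its brightest probe set (adjusted p = 6.9e-06) and more with the probe set of its widest gap, from 2520 and 3278 in the control to between 114.1 and 2048, and 2 of its probe sets were not separated.

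The list of cytokinin response regulators, which also holds cytokinin oxidase (CKX) genes, had 4 of 14 genes upward (28.6%) and 1 downward (7.14%). All tested genes had the same 17.2% and 10.8%. The downward gene, OsCKX11, is an oxidase gene, as is OsCKX3 among the upward ones. OsRR2 read 672.6 and 750.4 in the control and 982.2 to 2211 with low phosphate, and rose by 0.89 ± 0.10 (adjusted p = 1.4e-05). Cold-response factors of the DREB group had 2 of 8 genes downward (25%) and 0 upward. DREB1A read 836.0 and 906.1 in the control and 167.9 to 527.0 with low phosphate, and fell by 1.54 ± 0.13 (adjusted p = 2.3e-06). Among sugar genes OsSWEET12, of the sugar exporter family, read 305.4 and 416.2 in the control and 575.0 to 1544 with low phosphate, and rose by 1.34 ± 0.11 (adjusted p = 1.1e-06). The sucrose synthase genes OsSUS1 and OsSUS4 went apart, since OsSUS1 rose by 0.91 ± 0.04 with a gap of 0.10 and OsSUS4 fell by 0.71 ± 0.09.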
